A study of Rattus norvegicus with 16 samples.

Results

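Glutathione transferases are the enzymes that join the small tripeptide glutathione to reactive, electron-poor molecules such as oxidised lipids, drugs and other foreign chemicals, which can then be exported from the cell. The family was followed here in the rat, in the extraocular muscles that turn the eyeball and in another skeletal muscle labelled TA. The 10 members were chosen by name, with earlier results of these data known: Mgst1, Gstm1, Gstm2, Gstm5, Gsta1, Gsta3, Gsta4, Gstp1, Gstt1 and Gstt2. They are read by 21 of the 8799 probe sets of a single-colour oligonucleotide array, where a probe set is a group of short probes summarised to a single intensity, and are 10 of the 4737 genes that the array names by a single symbol. All 10 matched a current gene entry of the RefSeq GRCr8 annotation.

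The arrays fall into 3 groups. EOM is extraocular muscle, on 4 arrays numbered 1 to 4. TA_6h is TA muscle collected at 6 hours, on 8 arrays taken to be 4 numbered samples on a pair of arrays each, and TA_1h is TA muscle collected at 1 hour, on 4 arrays taken to be 2 numbered samples. Total RNA was measured throughout. Strain, sex, age and treatment are not given in the sources used here, nor is the event that starts the hours, nor an hour for EOM. Whether the numbers stand for separate animals is not stated either, so a p-value reflects the variation among these samples only, and this variation may be technical.

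Some facts of the whole series bear on every value below. The deposited intensities are linear and already scaled by the authors to a common trimmed mean. Of the EOM intensities 24.3% were below 0, and no TA intensity was, so the way the probes were summarised and the muscle cannot be told apart in a comparison of EOM with TA. Values under 56.5, the 25th percentile of all intensities, were raised to this floor before log2 was taken, and a probe set was tested if it exceeded the floor on at least 4 of the 16 arrays. A difference was called at an adjusted p under 0.05 (limma, Benjamini-Hochberg over 7640 probe sets). The beta-actin control, whose middle over 3′ intensity ratio falls where RNA or its copies are incomplete, was 0.891 to 0.978 on the EOM arrays. It was 0.146 to 0.390 on 5 TA arrays (TA_6h 3a, 3b, 4a and 4b and TA_1h 2b) and 0.815 to 1.28 on the other 7. The extraocular muscle markers Myh13, Myh3 and Myh8 were called higher in EOM than in TA_6h in 3 of 3 cases. Their summed intensity was 28777 to 35823 over the EOM samples and 4026 to 4149 over the TA_1h samples. In TA_6h replicates 1 to 4 it was 3643, 4464, 17582 and 6898, and the cause of the high sum in replicate 3 was not tested. Of 12 skeletal muscle markers 8 were called lower and 1 higher. Among all tested probe sets 25.3% were called lower and 21.9% higher.

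The family is sorted into classes by sequence. The cytosolic alpha (Gsta), mu (Gstm), pi (Gstp) and theta (Gstt) enzymes work as pairs of subunits, and Mgst1 is a membrane enzyme of the endoplasmic reticulum and mitochondria that also reduces lipid peroxides with glutathione. Many of these genes are known as targets of the transcription factor NRF2, which binds a short DNA element, the antioxidant response element, when cells are exposed to electrophiles. Members of a class resemble each other in sequence and several sit side by side, though Gsta4 is on chromosome 8. In GRCr8 the genes from Gstm5 to Gstm1, with Gstm2 between them, spanned 126 kb of chromosome 2, Gstt2 and Gstt1 together 54.0 kb of chromosome 20, and Gsta3 and Gsta1 61.6 kb of chromosome 9. Signal from 1 paralog can therefore appear on the probe set of another, above all where the probe set name carries f (probes shared across a gene family) or s (probes shared by similar transcripts).

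Because NRF2 is the regulator best known for this family, the 250 bases before each annotated start were read from the RefSeq GRCr8 promoter table, where 8 of the 10 genes have 9 such windows. The core letters TGACNNNGC of the antioxidant response element, on either strand, were present in 3 of the 9 windows (Gstm5, Gstp1 and 1 of the 2 of Gsta3), against 10.1% of 33469 windows of all rat genes. Printed 5′ to 3′ in the direction of the gene are Gstm5 and Mgst1, whose differences from TA_6h were the largest of the members, and Gstp1, which was not called. Capitals mark the matched letters.

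Gstm5, chr2:198219519-198219768, plus strand: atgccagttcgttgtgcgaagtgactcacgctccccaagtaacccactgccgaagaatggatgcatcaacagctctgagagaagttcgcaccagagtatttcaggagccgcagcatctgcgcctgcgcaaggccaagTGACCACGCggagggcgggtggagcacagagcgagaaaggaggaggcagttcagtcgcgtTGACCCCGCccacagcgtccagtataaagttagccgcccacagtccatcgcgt

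Mgst1, chr4:172760680-172760929, plus strand: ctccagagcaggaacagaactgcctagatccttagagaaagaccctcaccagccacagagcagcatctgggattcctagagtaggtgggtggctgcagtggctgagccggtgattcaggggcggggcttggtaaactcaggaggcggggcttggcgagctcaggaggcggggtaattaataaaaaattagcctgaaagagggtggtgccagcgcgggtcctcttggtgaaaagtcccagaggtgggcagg

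Gstp1, chr1:210769706-210769955, minus strand: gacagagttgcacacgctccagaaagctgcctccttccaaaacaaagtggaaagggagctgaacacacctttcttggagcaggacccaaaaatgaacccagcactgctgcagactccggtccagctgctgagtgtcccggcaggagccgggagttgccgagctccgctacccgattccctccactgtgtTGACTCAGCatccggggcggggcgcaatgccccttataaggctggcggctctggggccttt

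The Gstm5 window held 2 matches, 113 and 53 bases before the start, the Gstp1 window 1 match 61 bases before it, and the Mgst1 window none. A match is a description of these letters and was not tested as a binding site.

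The main comparison asks how the transferases differ between extraocular muscle and TA muscle collected at 6 hours. Of the 20 member probe sets tested, 13 were called, where 47.2% of all tested probe sets were. As the members were chosen with earlier results of these data known, the counts describe them and do not test the family. In EOM 12 were higher (21.9% of all) and 1 was lower (25.3% of all). The 12 came from 7 of the 10 genes (Mgst1, Gstm1, Gstm2, Gstm5, Gsta1, Gsta4 and Gstt1), the lower one was a probe set of Gstt2, and no probe set of Gsta3 or Gstp1 was called. The median log2 difference was 1.23 over the member probe sets tested and -0.11 over all tested. On 11 member probe sets every EOM array exceeded every TA_6h array, which 16.5% of all tested probe sets did, and on 1 every EOM array was lower, as on 17.3% of all. A probe set of Gsta3 (S72506_s_at) exceeded the floor on 1 of 16 arrays and was not tested.

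**Figure D1:**
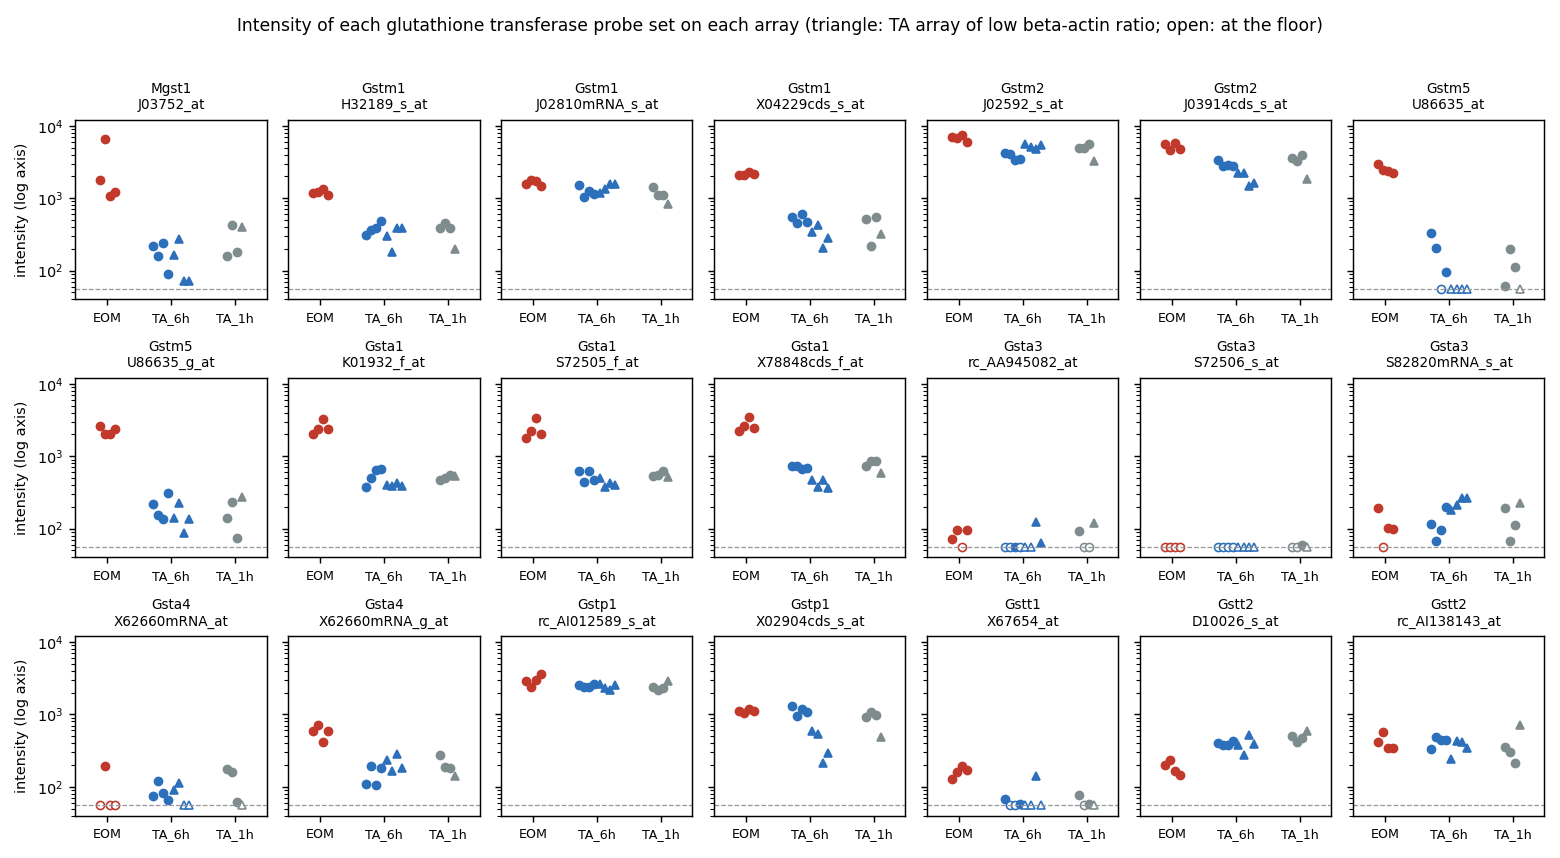
Intensity (log axis, no unit) of the 21 glutathione transferase probe sets on each array, with EOM, TA_6h and TA_1h from left to right. Triangles are the 5 TA arrays with a low beta-actin ratio, open symbols values raised to the floor of 56.5 (dashed line). The Mgst1, Gstm5 and Gsta1 points of EOM lie above all TA points, with EOM array 2 at 6590 for Mgst1.

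Gstm5, a mu class enzyme, had the largest difference of the members, and its U86635_at probe set held rank 5 of 7640 by size of the positive difference. The intensities of U86635_at were 2954, 2468, 2345 and 2199 on EOM arrays 1 to 4, and on the TA_6h arrays ran from 27.0 (lowest) through 45.3 (median) to 328 (highest). Its EOM arrays were close together and far above all TA_6h arrays. The mean was 2492 ± 327 in EOM and 102 ± 110 in TA_6h (SD, n = 4 samples each). The log2 difference was 4.81 ± 0.44 (SE, limma adjusted p = 1.89e-05), a 28.1-fold difference of floored values. With 5 of 8 TA_6h arrays at the floor its size moves with the floor, being 3.97 for a 40th percentile floor and 5.21 for a 10th percentile floor, and it was 5.32 without TA_6h replicate 1 and 4.17 without the low-ratio TA arrays.

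The second probe set of this gene, U86635_g_at, exceeded the floor on every array. It read 2604, 2014, 2060 and 2384 on EOM arrays 1 to 4 and from 86.0 through a median of 147 to 316 on the TA_6h arrays. Here too the groups were wide apart. The log2 difference was 3.77 ± 0.22 (limma adjusted p = 1.37e-06), 13.7-fold, with means of 2265 ± 279 in EOM and 177 ± 47.8 in TA_6h (SD, n = 4 each). Over 23 alternative settings it stayed between 3.40 and 4.01 and was called in all of them.

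Mgst1, the microsomal enzyme, was also higher in EOM on every array, but EOM itself was uneven. The J03752_at intensities were 1764, 6590, 1068 and 1217 on EOM arrays 1 to 4, against a lowest of 71.9, a median of 161 and a highest of 273 on the TA_6h arrays. EOM array 2 was 3.74 times the next EOM array, and the other 3 EOM arrays still exceeded each TA_6h array. The log2 difference was 3.79 ± 0.56 (limma adjusted p = 0.000395), 13.8-fold, with means of 2660 ± 2637 in EOM and 161 ± 62.8 in TA_6h (SD, n = 4 each). Without EOM replicate 2 the EOM mean was 1350 ± 366 (SD, n = 3) and the log2 difference 3.21 (limma adjusted p = 0.000165).

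Such an excess on EOM array 2 was not seen on most member probe sets. A ratio of at least 3.74 to the next EOM array was reached by 71 of 7640 tested probe sets on EOM array 2 (0.929%), against 16, 11 and 19 on arrays 1, 3 and 4. At 2-fold or more over the next array it held 242 tested probe sets (3.17%), which include 2 of the 20 member probe sets, those of Mgst1 and Gsta4 X62660mRNA_at. After flooring, the largest ratio was that of Adh1c (3163 on EOM array 2, below 0 on the others), followed by Ctse (3816, against 13.3 to 172). Other genes high on this array, chosen after their values were seen, included Pon1, Fabp5 and Plin2. Pon1 read 721, with the other EOM arrays under the floor. Fabp5, a fatty acid binding protein, read 12313 on EOM array 2, against 956 to 1290 on the others. Plin2, a lipid droplet coat protein, read 10249, against 1022 to 1176. Of the detoxification genes listed further on, Nqo1, a quinone reductase (2739, against 864 to 1117), and Akr7a3, an aldehyde reductase (2379, against 38.8 to 162), were high there too. They were the 2 of 27 tested in their list (7.41%) at 2-fold or more. Of 7 further transferases and 16 genes of glutathione synthesis, recycling and turnover, 0 were. The summed intensity of 8 orbital gland markers was 1416, 2121, 1103 and 1556 on EOM arrays 1 to 4, with 0 of 7 tested markers at 2-fold or more on array 2. The sum of the hepatocyte markers was 3679, 4228, 3791 and 3999.5 on the same arrays, also with 0 of 10 at 2-fold or more on array 2. Of 9 adipocyte markers tested, 1 (Pparg) was at 2-fold or more there. Probe sets that list several genes are in none of these list counts. Some of them were high on array 2, named after their values were seen. After flooring, S56937_s_at (Ugt1a1, Ugt1a6 and other Ugt1a genes) was 14.1 times the next EOM array and AF036761_g_at (Scd and relatives) 16.5 times. K00136mRNA_at (Gsta5 or Gsta2) read 260 on EOM array 2 and below 0 on the others. The part of these genes and markers in the Mgst1 value was not tested.

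Gstm1, another mu class enzyme and among the abundant transferases of rat liver, is read by 3 probe sets that did not give the same size. X04229cds_s_at read 2093, 2080, 2278 and 2135 on EOM arrays 1 to 4 and from 208 through a median of 442 to 607 on the TA_6h arrays, a log2 difference of 2.44 ± 0.25 (limma adjusted p = 3.56e-05). H32189_s_at read 1165, 1235, 1338 and 1118 on the EOM arrays and 179 to 481 with a median of 373 on the TA_6h arrays, a log2 difference of 1.84 ± 0.22 (limma adjusted p = 0.000111). In both, each EOM array was above each TA_6h array. The third, J02810mRNA_s_at, overlapped between the groups, with 1563, 1788, 1720 and 1454 on the EOM arrays and 1053 to 1584 with a median of 1278 on the TA_6h arrays. Its log2 difference was 0.31 ± 0.17 and was not called (limma adjusted p = 0.15). It was called with the 5 low-ratio TA arrays left out (log2 0.41, limma adjusted p = 0.0465).

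Gstm2, a mu class subunit whose human counterpart is known from muscle, was higher in EOM by less. J03914cds_s_at read 5677, 4676, 5808 and 4841 on EOM arrays 1 to 4 and from 1450 through a median of 2502 to 3370 on the TA_6h arrays. Its log2 difference was 1.17 ± 0.23 (limma adjusted p = 0.00231). J02592_s_at read 7009, 6703, 7554 and 5985 on the EOM arrays and 3317 to 5635 with a median of 4506 on the TA_6h arrays. Both probe sets put every EOM array above every TA_6h array, though EOM array 4 and the highest TA_6h array of J02592_s_at were close together. The log2 difference of J02592_s_at was 0.62 ± 0.18 (limma adjusted p = 0.0197), and the call was lost without EOM replicate 3 (limma adjusted p = 0.0567) or with the low-ratio arrays alone as TA (log2 0.37, limma adjusted p = 0.052).

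**Figure D2:**
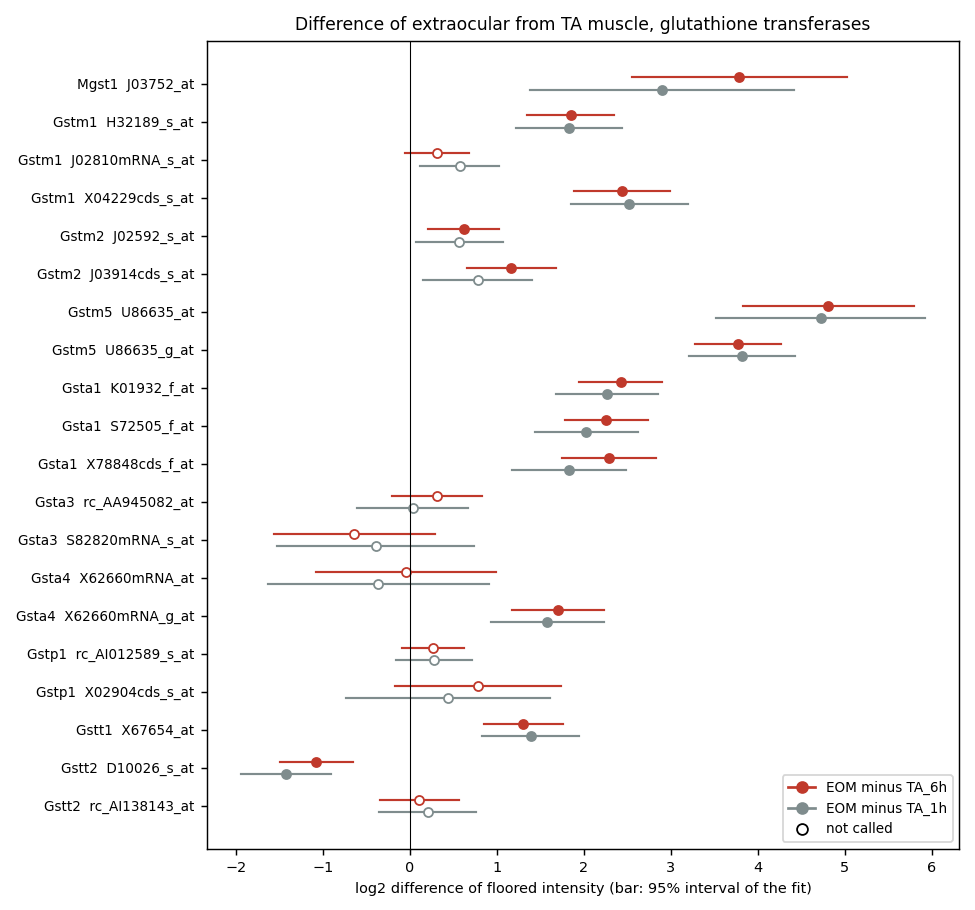
Log2 difference of floored intensity, EOM minus TA_6h (red) and EOM minus TA_1h (grey), for the 20 tested probe sets, with 95% intervals of the limma fit. Filled points were called and open points were not. Gstm5 has the largest differences and Gstt2 D10026_s_at is the probe set called lower against both TA groups.

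Among the alpha class genes, Gsta1 rose and Gsta3 did not pass the test. Gsta1 encodes an alpha subunit that also reduces lipid hydroperoxides. RefSeq lists Gsta3 and Gsta5 among its older names, and all 3 of its probe sets carry f, so they may read several alpha genes at once. K01932_f_at read 2022, 2401, 3277 and 2357 on EOM arrays 1 to 4 and from 372 through a median of 414 to 658 on the TA_6h arrays. Its log2 difference was 2.42 ± 0.21 (limma adjusted p = 1.58e-05). The other pair, S72505_f_at and X78848cds_f_at, gave 2.26 ± 0.21 and 2.29 ± 0.24, with EOM arrays at 1783 to 3447 and TA_6h arrays at 361 to 735 over both. EOM array 3 was the highest of the 4 on all 3 probe sets, and no EOM array overlapped a TA_6h array.

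The 3 probe sets of Gsta3, an alpha subunit listed in RefSeq with the older names Gsta5 and Yc2, gave no call, and rc_AA945082_at and S72506_s_at lay at or near the floor. S82820mRNA_s_at read 191, 0.588, 101 and 98.4 on EOM arrays 1 to 4 and from 67.6 through a median of 188 to 267 on the TA_6h arrays (log2 -0.64 ± 0.41, limma adjusted p = 0.23). The groups overlapped and EOM array 2 was at the floor. For rc_AA945082_at the EOM arrays lay between 53.1 and 96.5 and the TA_6h arrays between 6.76 and 125 (log2 0.31 ± 0.23, limma adjusted p = 0.30), with 3 of 4 EOM and 3 of 8 TA_6h arrays above the floor.

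Gsta4, the alpha subunit that acts on 4-hydroxynonenal, a breakdown product of oxidised lipids, differed between its 2 probe sets. X62660mRNA_g_at read 580, 707, 419 and 592 on EOM arrays 1 to 4 and from 107 through a median of 183 to 283 on the TA_6h arrays. The groups did not overlap, and the log2 difference was 1.70 ± 0.24 (limma adjusted p = 0.000281). X62660mRNA_at read -15.0, 195, -19.3 and 5.45 on the EOM arrays, so that only array 2 exceeded the floor, and 54.2 to 121 with a median of 78.9 on the TA_6h arrays. Its difference was -0.05 with a 95% interval of -1.08 to 0.99 and was not called.

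Gstp1, the pi class enzyme found in most tissues outside the liver, was not called on either probe set. For rc_AI012589_s_at, 2875, 2372, 2961 and 3560 on EOM arrays 1 to 4 stood against 2153 to 2596 with a median of 2460 on the TA_6h arrays. EOM array 2 lay within the TA_6h range and the other 3 above it, and the log2 difference was 0.26 with an interval of -0.10 to 0.62 (limma adjusted p = 0.20). X02904cds_s_at read 1109, 1061, 1169 and 1100 on the EOM arrays, and on the TA_6h arrays from 215 through a median of 770 to 1293. Its log2 difference was 0.78 ± 0.43 (limma adjusted p = 0.16).

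That wide spread in X02904cds_s_at went with the split of the TA arrays by beta-actin ratio. The 5 TA arrays of low ratio read 215 to 587 and the other 7 TA arrays 907 to 1293, with no overlap. Within the low-ratio arrays the values did not run in the order of the ratio, as 0.146 read 480 and 0.232 read 215. In TA_6h the low-ratio arrays are those of replicates 3 and 4, so the ratio and the sample cannot be told apart there. Each fit below holds only TA_6h replicates 1 and 2, or only 3 and 4. Without the low-ratio arrays the log2 difference from TA_6h was -0.01 (limma adjusted p = 0.96), and with those arrays alone it was 1.57 and called (limma adjusted p = 0.0113). The same separation was present for Gstm2 J03914cds_s_at (1450 to 2260 on the low-ratio arrays, 2744 to 3973 on the others) and for Gsta1 X78848cds_f_at (361 to 595, against 661 to 849). These are 3 of 20 member probe sets, where 8.74% of all tested probe sets had every low-ratio array below the others and 4.52% had every one above. Gstm2 J03914cds_s_at kept a called difference without the low-ratio arrays (log2 0.84, limma adjusted p = 0.00363) and with them alone (1.49, limma adjusted p = 0.00238), and Gsta1 X78848cds_f_at was likewise called in both (1.91 and 2.67).

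**Figure D3:**
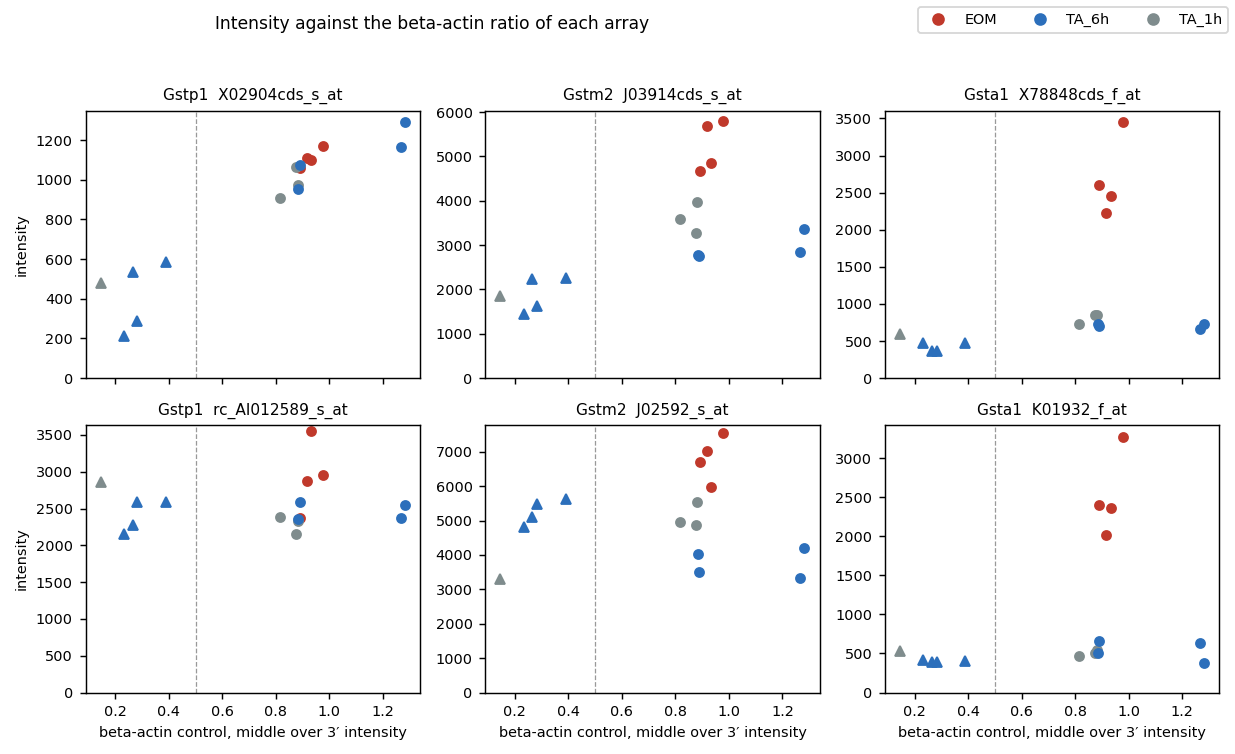
Intensity of 6 probe sets against the beta-actin middle over 3′ ratio of the same array; each point is an array, triangles are the 5 TA arrays left of the dashed line at 0.5. In the top row (Gstp1 X02904cds_s_at, Gstm2 J03914cds_s_at, Gsta1 X78848cds_f_at) the triangles lie below all other TA arrays; in the bottom row, other probe sets of the same genes, they overlap with them.

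In the theta class Gstt1 was called higher and a probe set of Gstt2 lower. Gstt1, an enzyme that also metabolises small halogenated compounds, read 127, 161, 193 and 168 on EOM arrays 1 to 4 and from 28.5 through a median of 51.5 to 143 on the TA_6h arrays (X67654_at). A single TA_6h array, 4a, lay within the EOM range. The log2 difference was 1.30 ± 0.20 (limma adjusted p = 0.000595) with 3 of 8 TA_6h arrays above the floor. With the floor at the 40th percentile it was 0.27 and not called (limma adjusted p = 0.13).

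Gstt2, a theta enzyme known for its activity on sulphate esters, gave the one lower call. D10026_s_at read 199, 234, 167 and 147 on EOM arrays 1 to 4 and from 274 through a median of 385 to 518 on the TA_6h arrays, so that all EOM arrays were lower. The log2 difference was -1.08 ± 0.19 (limma adjusted p = 0.00121) and the mean 187 ± 38.0 in EOM and 393 ± 53.4 in TA_6h (SD, n = 4 each). Its other probe set, rc_AI138143_at, read 415, 576, 348 and 347 on the EOM arrays and 239 to 493 with a median of 418 on the TA_6h arrays. These overlapped, and the difference of 0.11 with an interval of -0.35 to 0.56 was not called.

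Where a gene had several tested probe sets, their differences from TA_6h were set against each other. Over 12 pairs the gap was tested with a two-sided exact permutation test of samples over 70 arrangements, which cannot give a p below 0.0286. For 4 pairs the gap within each EOM sample did not overlap that within any TA_6h sample and gave this smallest p, adjusted p = 0.0857 over the 12 pairs (exact permutation test). They were the 3 pairs of Gstm1, with gaps of 2.13, 1.54 and 0.59 on the log2 scale, and the pair of Gstt2, with 1.18. No adjusted p was under 0.05, which a test with so high a smallest p can hardly give over 12 pairs. The 3 Gstm1 pairs share probe sets and are not independent. The Gsta1 pairs differed by 0.03 to 0.16 and the Gstm5 pair by 1.04.

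Against TA muscle collected at 1 hour, 11 of the 20 tested member probe sets were called, where 37.2% of all tested were. In EOM 10 were higher (17.7% of all) and 1 was lower (19.5% of all). Both TA groups were set against the same EOM arrays, so the 2 comparisons share them. The median log2 difference was 1.08 over the member probe sets and -0.09 over all tested. On 13 member probe sets every EOM array exceeded every TA_1h array, as on 21.0% of all, and on 1 every EOM array was lower, as on 21.7%.

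The TA_1h arrays 1a, 1b, 2a and 2b read 60.5, 200, 113 and 47.1 for Gstm5 U86635_at, far under the EOM arrays (log2 difference 4.72 ± 0.54, limma adjusted p = 0.000125). Its U86635_g_at gave 3.81 ± 0.27. For Mgst1 they read 159, 421, 182 and 398, where the b arrays were more than the a arrays in both samples, and all lay under the EOM arrays. The log2 difference of Mgst1 was 2.90 ± 0.68 (limma adjusted p = 0.0079). Leaving out TA_1h replicate 1 (2.87, limma adjusted p = 0.0563) or replicate 2 (2.93, limma adjusted p = 0.0513) hardly moved it but ended the call, as did low-ratio arrays alone as TA (2.31, limma adjusted p = 0.18). Each of these settings leaves 1 TA_1h sample, which is assumed to vary like the other groups.

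Beside Gstm5, the mu and alpha calls against TA_1h were those of Gstm1 X04229cds_s_at (log2 2.52) and H32189_s_at (1.82), the 3 Gsta1 probe sets (1.82 to 2.27) and Gsta4 X62660mRNA_g_at (1.58). Gstt1 was called higher (1.39, and 0.28, not called, with the floor at the 40th percentile) and Gstt2 D10026_s_at lower (-1.43 ± 0.23, limma adjusted p = 0.00107). Gstm2 was not called in either probe set (J03914cds_s_at 0.78, limma adjusted p = 0.0529; J02592_s_at 0.57, limma adjusted p = 0.073), nor was Gstm1 J02810mRNA_s_at (0.57, limma adjusted p = 0.0518). In all 3, however, each EOM array was above each TA_1h array, and J03914cds_s_at was called in 11 of 23 alternative settings, J02810mRNA_s_at in 10 and J02592_s_at in 4. Gsta3 and Gstp1 were not called.

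Between the TA groups the question is whether the transferases differ with the hour of collection. None of the 20 tested member probe sets was called between TA_6h and TA_1h, and 0% of all tested probe sets were (limma). At an unadjusted p under 0.05 there were 424 of 7640 probe sets and 0 of the members, whose smallest adjusted p was 0.989. No member had every TA_6h array above every TA_1h array, as 0.602% of all tested had, or below, as 0.589% had. The differences, TA_6h minus TA_1h, lay between -0.89 (Mgst1) and 0.26 (Gstm1 J02810mRNA_s_at). With 2 TA_1h samples the intervals were wide, as for Mgst1 (-2.40 to 0.63) and Gstm5 U86635_at (-1.29 to 1.11), narrower for Gstp1 rc_AI012589_s_at (-0.43 to 0.44), and do not show that the levels were alike.

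Counts in the lists that follow stand against 21.9% higher and 25.3% lower calls among all tested probe sets. Of 7 further transferases and relatives tested, 3 were called higher in EOM than in TA_6h and none lower, with a median log2 difference of 0.49. These were Alox5ap, the 5-lipoxygenase activating protein of leukotriene synthesis (1024 ± 116 in EOM, 259 ± 158 in TA_6h, log2 2.21 ± 0.33), Gstm7, a mu class gene (0.82 ± 0.20), and Mgst2, a microsomal transferase that can make leukotriene C4 (0.53 ± 0.17). Alox5ap belongs to the same membrane protein family as Mgst1 and is not itself a detoxifying transferase.

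Of 16 genes of glutathione synthesis, recycling and turnover, 3 were called higher and 6 lower, and the median was -0.14, against -0.11 for all probe sets. Gss, glutathione synthetase, which completes the tripeptide, was at the floor on all 4 EOM arrays and averaged 777 ± 399 in TA_6h, at least 12.3-fold lower in EOM (limma adjusted p = 1.65e-05). Its EOM intensities were below 0, where the summary of the probes and the muscle cannot be told apart. Idh1, the cytosolic isocitrate dehydrogenase that supplies NADPH, was higher at 2928 ± 356 in EOM and 648 ± 231 in TA_6h (log2 2.25 ± 0.23). Slc3a2, the heavy chain of the cystine and glutamate exchanger among other amino acid transporters, was lower (log2 -1.79 ± 0.26), as was Me1, the cytosolic malic enzyme, another source of NADPH (-1.70 ± 0.23).

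Of 27 other detoxification enzymes, NRF2-linked genes and conjugate exporters, 8 were called higher and 5 lower, with a median of 0.11. Cyp1b1, a cytochrome P450, averaged 1240 ± 96.0 in EOM and 124 ± 32.2 in TA_6h (log2 3.38 ± 0.20). Ephx2, the soluble epoxide hydrolase that opens lipid epoxides, averaged 145 ± 120 in EOM and 1838 ± 209 in TA_6h (-3.71 ± 0.41), and Ephx1, the microsomal epoxide hydrolase, ran the other way (1.97 ± 0.23). Aldh3a1, an aldehyde dehydrogenase, was 1.71 ± 0.21 higher. Nfe2l2, which encodes NRF2 itself, was at 798 ± 47.4 in EOM and 268 ± 49.5 in TA_6h (1.61 ± 0.17). Nqo1, a classical NRF2 target and high on EOM array 2 as given above, was not called (0.64 ± 0.33, limma adjusted p = 0.14). This pair is named outside the naming rule, after their values were seen, and the activity of NRF2 was not tested. Against TA_1h, where 17.7% of all tested probe sets were higher and 19.5% lower, the counts in the 3 lists were 1 higher and 0 lower, 2 and 6, and 7 and 3.

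**Figure D4:**
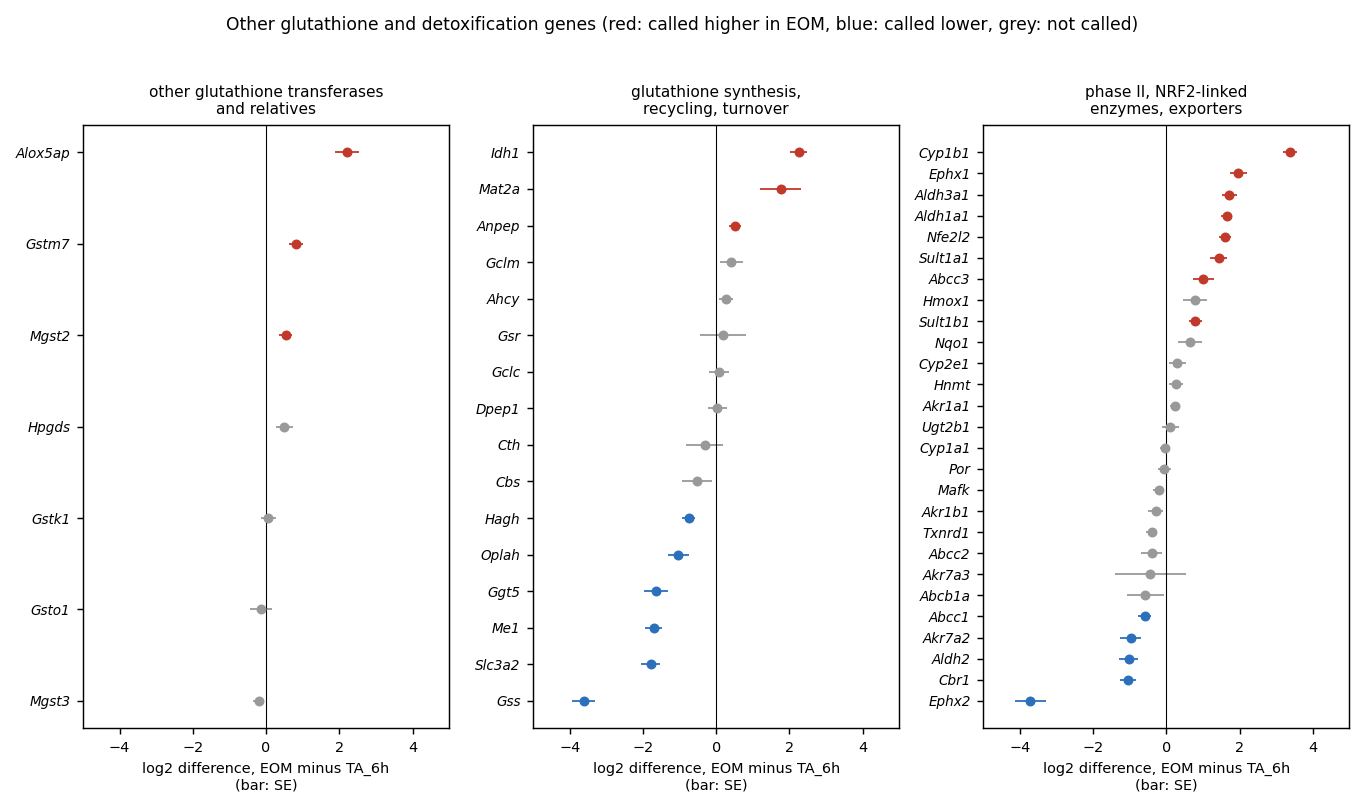
Log2 difference, EOM minus TA_6h, with limma standard errors, for the tested genes of 3 lists: 7 other transferases and relatives, 16 genes of glutathione synthesis, recycling and turnover, and 27 other detoxification genes. Red points were called higher in EOM, blue points lower and grey points were not called. The middle list has more blue than red points, led by Gss at -3.62.

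Muscle samples hold other cells, and a lower share of a cell type cannot be told apart from less RNA per cell in it. Counts of markers of other cell types called between EOM and TA_6h stand against the same shares of all probe sets, 21.9% higher and 25.3% lower. Called higher were 6 of 7 nerve and Schwann cell markers tested (none lower, summed intensity 9579 to 13975 over the EOM samples and 2257 to 2848 over the TA_6h samples, with Nefm at the floor in EOM and Sox10 in TA_6h). The counts were 7 higher and 1 lower of 12 fibroblast and matrix markers (sums of 87228 to 105131 in EOM and 62141 to 88169 in TA_6h) and 4 higher and 1 lower of 9 macrophage and mast cell markers (9336 to 13213 in EOM and 3393 to 4116 in TA_6h). Of 9 adipocyte markers 4 were higher and 2 lower (15933 to 19620 in EOM and 11307 to 15288 in TA_6h), with Plin1, Lipe and Pck1 at the floor in EOM and Pck1 in TA_6h too.

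Smooth muscle markers gave 3 higher and 1 lower of 5, with sums of 6003 to 7779 in EOM and 2651 to 10658 in TA_6h, where replicate 1 exceeded every EOM sample. Higher and lower calls numbered 1 and 2 of 6 endothelial, 2 and 3 of 7 orbital gland and 0 and 2 of 5 red blood cell markers. For hepatocytes, a rich source of several of these transferases, 2 of 10 markers were higher and 2 lower, with summed intensities of 3679 to 4228 in EOM and 3044 to 4293 in TA_6h. Apoh and Tat were at the floor on every EOM and every TA_6h array, Ttr on every EOM array and no TA_6h array, and albumin (Alb) averaged 324 in EOM and 114 in TA_6h. The part of these cell types in the transferase differences was not tested.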

How the data were processed

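The authors deposited 1 intensity per probe set and array on a linear scale, as total RNA measured on 16 arrays. The summary of the probes is not given in the sources read. All 4 EOM and 12 TA columns were used as deposited. Intensities were floored at the 25th percentile (56.5) and log2-transformed. TA_6h arrays 1 and 2, which carry no letter, were joined with 1b and 2b, an inference. Within a group, log2 values of same-numbered arrays were averaged and count as 1 sample. Same-numbered TA_1h arrays correlated at 0.899 to 0.957 and TA_1h arrays of other number at 0.883 to 0.961. For TA_6h these ranges were 0.947 to 0.956 and 0.849 to 0.955. As the ranges overlap, they do not show that same-numbered arrays share a sample. The middle of the GAPDH control read 19527 and 2184 on TA_6h 1 and 1b, and 9700 and 856 on 2 and 2b. It read 6698 and 31922 on 3a and 3b, and 20190 and 22046 on 4a and 4b.

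The 3 groups were fitted together in R 4.3.3 with lmFit and eBayes of limma 3.58.1 (7 residual and 2.83 prior degrees of freedom), after a check on simulated data. Alternatives changed the floor, scaling, filter, averaging, replicate block, variance trend and arrays used. Log2 differences carry limma standard errors and intensities SDs over samples. The number of arrays limits the precision.

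Gene names come from the platform annotation, and 59 control probe sets were left out. Probe sets listing several genes were assigned to none. Every member probe set is reported, and of each other list up to 4 called genes with the largest differences, with 1 probe set per gene, that of the highest mean. Members and lists were chosen with earlier results of these data known. Same-numbered samples of EOM and TA_6h had deviations that correlated weakly (0.021 to 0.105), too weakly to take the numbers as pairs. Promoter windows are from RefSeq.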

Additional observations from a re-analysis of the deposited data

Results flagged for a closer look

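Single samples standing apart from the other 3 of their group (gap over range above Dixon's 95% critical value) were found 7 times. Each member probe set was looked at in EOM and in TA_6h, both as intensity and as floored log2, 82 looks in all that are not independent of each other; chance alone flags about 1 group in 20. Of these, 3 rest on EOM replicate 2: Mgst1 at an intensity of 6590 (next EOM sample 1764), and Gsta4 X62660mRNA_at at 195, or 7.61 on the floored log2 scale, with the other EOM samples at the floor. Gsta3 S72506_s_at read 50.3 in EOM replicate 4 and below 0 in the other EOM samples, all under the floor. In TA_6h, Gsta3 rc_AA945082_at stood at 6.48 on the floored log2 scale in replicate 4, against 5.82 in the next sample and a floor on which the others lie or nearly lie. Gstm5 U86635_at read 265 in TA_6h replicate 1, against 71.2 in the next sample. Gsta1 K01932_f_at read 648 in TA_6h replicate 2, against 439 in the next. No cause was tested for any of them.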

How the results depend on the processing

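Of the 13 member probe sets called between EOM and TA_6h, 11 were called in every alternative run that tested them. Gstm5 U86635_at is among these 11, but it was not tested where all 16 arrays had to exceed the floor. The exceptions were Gstm2 J02592_s_at and Gstt1, whose values stand in the report. Counts of member calls were 11 to 14 for EOM against TA_6h and 10 to 14 for EOM against TA_1h over all alternatives, and 0 throughout for TA_6h against TA_1h. No called difference changed sign. Over all probe sets, requiring all 16 arrays above the floor left 1927 calls for EOM against TA_6h and 1512 for EOM against TA_1h, where fewer probe sets were tested (4041). For TA_6h against TA_1h the calls were 1 with that filter, 8 with no filter, 1 with each array as its own sample, 45 without the low-ratio TA arrays and 681 with only those, where TA_1h is a single array (2b) assumed to vary like the other groups; the cause was not tested. Leaving out single samples gave 3156 to 3514 calls for EOM against TA_6h, 1861 (without TA_1h replicate 1) to 3045 for EOM against TA_1h, and 0 to 1 (without TA_6h replicate 3 or 4) for TA_6h against TA_1h. The split of EOM against TA_6h into higher and lower calls was 1671 and 1935 as reported, 1860 and 1623 with arrays scaled to 1 median, 1795 and 1737 after quantile normalization, 1136 and 791 with all 16 arrays above the floor, 1674 and 2792 with the 10th percentile as floor, and 1697 and 2406 for log2 of the value plus 50. The median log2 difference of all probe sets, -0.11 as reported, was 0.003 after median scaling and 0.02 after quantile normalization. With number as a replicate block, 3507 probe sets were called for EOM against TA_6h and 2540 for EOM against TA_1h, and 13 and 12 of the members. This block changed 1 member call, in that Gstm2 J03914cds_s_at was called against TA_1h (limma adjusted p = 0.0392). The deviations of every EOM sample correlated best with those of the TA_6h sample of its own number, though weakly (0.021 to 0.105). With TA_1h, replicate 1 matched its own number best (0.037 for EOM, 0.389 for TA_6h). Replicate 2 of TA_1h did not (-0.044 for EOM, -0.418 for TA_6h). Any such match is a hint from the data and not from the labels.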

Other observations

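A pair of probe sets that the annotation lists for Gsta5 or Gsta2, near copies among the alpha class genes, was left out of the members, since it is assigned to several genes. The first, rc_AI235747_at, read 391, 515, 453 and 504 on EOM arrays 1 to 4, above the 42.4 to 323 of the TA_6h arrays and the 42.3 to 144 of the TA_1h arrays. The second, K00136mRNA_at, read 260 on EOM array 2, below 0 on the other EOM arrays, 8.91 to 20.9 on the TA_6h arrays and 8.36 to 65.8 on the TA_1h arrays. EOM array 2 is the array on which Mgst1 was highest. On the 20 tested member probe sets, the highest EOM value was that of array 3 in 9 cases, array 2 in 7, array 1 in 3 and array 4 in 1.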
